A study of Mus musculus with 6 samples.

Results

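Of 38 listed genes, 28 had a value here: 18 of 20 cytosolic aminoacyl-tRNA synthetases, 8 of 16 mitochondrial ones and both listed scaffold proteins of the multisynthetase complex, out of 12393 genes in all. They were chosen by name. Each gene was read by the probe set (a group of short probes for 1 transcript) that was brightest over all arrays among those annotated to that gene alone. The cytosolic Dars and Mars and the mitochondrial Aars2, Cars2, Lars2, Mars2, Nars2, Vars2, Wars2 and Yars2 were not analysed here.

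The livers came from 3 PiZ mice and 3 wild-type mice, all 6 weeks old and of the C57BL/6 strain, with 1 Affymetrix array per mouse. PiZ mice carry a transgene for the Z form of human alpha-1 antitrypsin, a secreted protease inhibitor that misfolds in the endoplasmic reticulum of hepatocytes. The sources used here give neither the sex of the mice nor the promoter that drives the transgene. Values below are log2 intensities in the order of replicates 1, 2 and 3. A level can be compared between arrays for 1 gene but not between genes. A fold change is the mean of the 3 PiZ arrays less that of the 3 wild-type arrays, in log2 units, fitted by limma and given with its standard error (SE), and a gene is said to have risen or fallen where its p, adjusted by Benjamini-Hochberg over all genes, was under 0.05. The number of arrays limits the precision.

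An aminoacyl-tRNA synthetase joins 1 amino acid to its tRNA, which is how the genetic code is read at the ribosome. Cells keep a cytosolic and a mitochondrial set, both encoded in the nucleus, and the genes Gars and Kars supply both compartments. Several cytosolic enzymes are bound together in the multisynthetase complex, held by the scaffolds Aimp1, Aimp2 and Eef1e1. Many cytosolic enzyme genes are known targets of ATF4, a transcription factor made when the initiation factor eIF2alpha is phosphorylated under amino acid shortage or endoplasmic reticulum stress.

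ATF4 binds, with a C/EBP partner, to an element whose core was searched here as TGATGNAA on both strands (TTNCATCA on the other), in windows of 250 bases before to 50 bases after each RefSeq transcript start of GRCm38.p6. It was found for 5 of the 11 measured cytosolic enzymes with a window in the table (Aars, Gars, Tars, Iars and Yars), and for 0 of 6 measured mitochondrial enzymes and 0 of 2 scaffolds. Of all 27025 genes in the table, 4.51% held it. Among 23 other measured ATF4 targets with a window, 9 held it, Asns among them. The matches that carry this count are shown with the element in capitals, from 5′ to 3′ on the gene's strand, since their positions differ between genes. Upstream stretches end at the base before the start, and the 3 short ones begin at the first transcribed base.
Aars, chr8:111033722-111033841, + strand: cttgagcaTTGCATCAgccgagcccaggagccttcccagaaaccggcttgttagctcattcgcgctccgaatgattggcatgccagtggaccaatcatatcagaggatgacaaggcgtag
Aars, chr8:111033842-111033865, + strand: cgggtcactTTTCATCAgagcgct
Gars, chr6:55037941-55038000, + strand: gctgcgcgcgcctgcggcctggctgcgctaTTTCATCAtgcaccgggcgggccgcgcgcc
Tars, chr15:11399659-11399718, - strand: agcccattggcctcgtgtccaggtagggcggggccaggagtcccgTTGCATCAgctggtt
Iars, chr13:49682130-49682151, + strand: gtcagtaTTGCATCAcctccag
Yars, chr4:129189903-129189924, + strand: agcTGATGCAAcccgacgggac
Asns, chr6:7693210-7693269, - strand: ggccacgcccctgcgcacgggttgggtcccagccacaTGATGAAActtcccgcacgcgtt
Aars held the element at 2 places, with first bases at -112 and 10 from the start, and the Tars match began at -15, closest to the start among the upstream ones. Of the 5 enzyme genes with the element, Aars and Gars rose and Tars, Iars and Yars did not pass the test. Of the measured cytosolic genes with a window but no element, Farsa and Sars rose and Eprs, Farsb, Kars and Qars did not pass. Hars, Lars, Nars, Rars, Vars and Wars, which rose, and Cars, which did not pass, had no window and were not searched. A match is a run of letters and not a measured binding site.

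Cytosolic synthetases were higher in PiZ liver in 10 of 18 genes and lower in 0 by limma (0 lower also at an unadjusted p under 0.05). Over all genes 11.3% were called higher and 12.3% lower, 23.6% in either direction. The median fold change of the 18 was 0.49, against 0.08 over all genes. In 13 of the 18 every PiZ array lay above every wild-type array, a pattern seen for 24.9% of all genes. Each left-out array moved the count: 11 rose without PiZ replicate 1, 9 without PiZ replicate 2, 6 without PiZ replicate 3, and 4, 7 and 4 without wild-type replicates 1, 2 and 3. The number of all genes changed in either direction moved as well. It was 6175, 1787, 1442, 1105, 1262 and 1068 in the same order, against 2921 with all arrays. Aars, Lars, Rars and Wars passed in all 6 of these fits. Mitochondrial synthetases showed no such shift: 1 of 8 rose and 1 of 8 fell, their median was -0.01, and 6 did not pass. Groups did not overlap in 3 of these 8, against 44.8% of all genes in either direction. Neither scaffold passed with all arrays (0 of 2 also at an unadjusted p under 0.05).

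**Figure D1:**
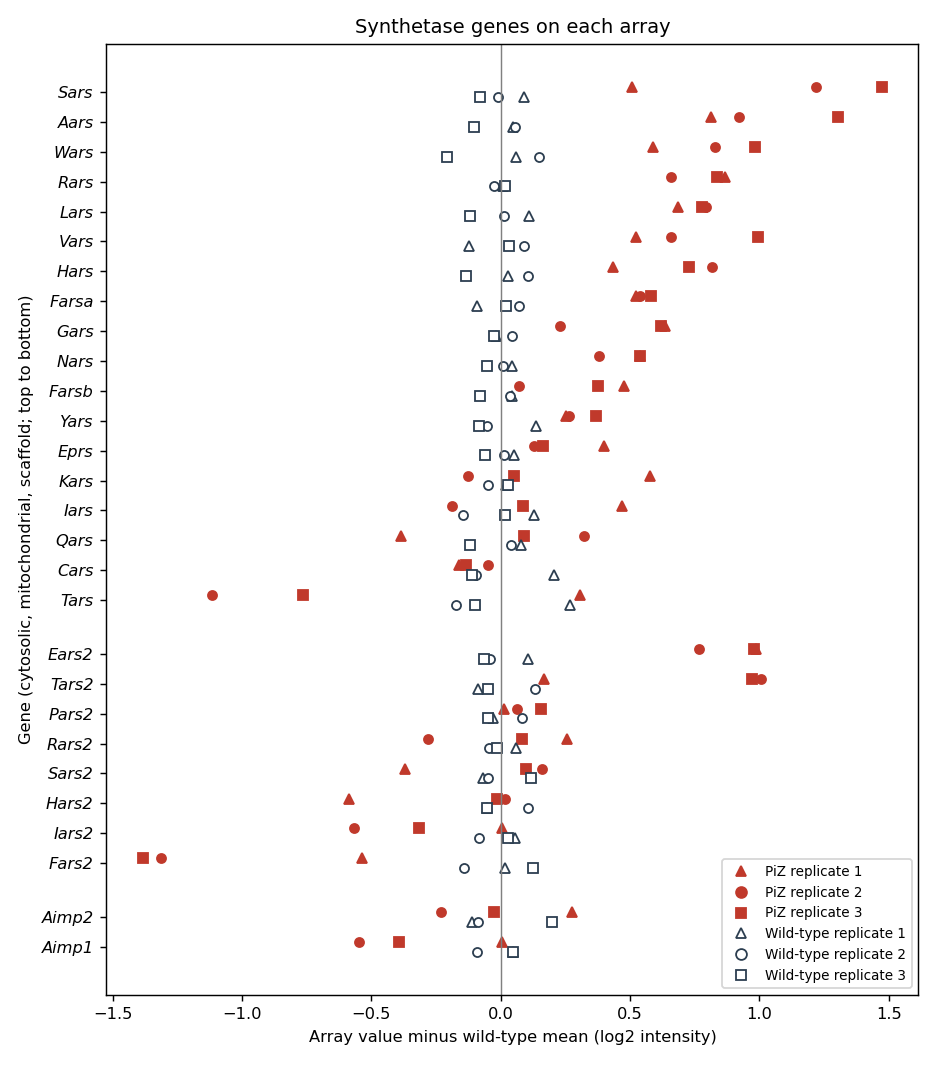
Each row is 1 gene and each symbol 1 array, plotted as its log2 intensity minus the wild-type mean of that gene, with PiZ arrays filled and wild-type arrays open. The PiZ symbols of 13 cytosolic genes lie to the right of all their wild-type symbols, and PiZ replicate 1 stands apart from replicates 2 and 3 in Tars, Kars, Iars and Qars.

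Sars and Aars, which charge serine and alanine and act outside the complex, had the highest fold changes of the members. Sars read 9.33, 10.04 and 10.29 in PiZ liver, against 8.91, 8.81 and 8.74 in wild-type liver. It rose 2.09-fold, by 1.06 on the log2 scale (SE 0.23, limma adjusted p = 0.0175), with PiZ replicate 1 closest to wild-type. It passed without PiZ replicate 1 and missed the threshold without any other array, where fold changes were 0.86 to 1.11 (adjusted p 0.0544 to 0.0737). Aars read 11.46, 11.57 and 11.95 in PiZ liver, against 10.70, 10.71 and 10.54 in wild-type liver. All 3 PiZ arrays were well above the wild-type ones, and the gene rose 2.02-fold, by 1.01 (SE 0.15, adjusted p = 0.00457). Wars, the tryptophan enzyme, which interferon gamma is also known to induce, read 7.86, 8.10 and 8.25 in PiZ liver, against 7.33, 7.42 and 7.06 in wild-type liver. It rose by 0.80 (SE 0.15, adjusted p = 0.0102) with no overlap between the groups.

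The valine enzyme Vars, which binds the elongation factor complex eEF1, read 8.22, 8.36 and 8.70 in PiZ liver, against 7.58, 7.79 and 7.73 in wild-type liver, and rose by 0.72 (SE 0.15, adjusted p = 0.0135). The histidine enzyme Hars read 10.38, 10.76 and 10.67 in PiZ liver, against 9.97, 10.05 and 9.81 in wild-type liver, and rose by 0.66 (SE 0.14, adjusted p = 0.0145). In both genes every PiZ array exceeded every wild-type array. Hars missed the threshold without PiZ replicate 3 or wild-type replicate 1 or 3 (adjusted p 0.0554 to 0.0717), and Vars and Farsa without wild-type replicate 1 or 3 (adjusted p 0.0514 to 0.0658). Phenylalanine is charged in the cytosol by a tetramer of a catalytic subunit, Farsa, and a second subunit, Farsb. Farsa read 7.67, 7.69 and 7.73 in PiZ liver, against 7.06, 7.22 and 7.17 in wild-type liver. Its PiZ values were the most uniform of the members (SD 0.03, n = 3), and it rose by 0.55 (SE 0.10, adjusted p = 0.0104). Farsb read 9.90, 9.50 and 9.80 in PiZ liver, against 9.47, 9.46 and 9.35 in wild-type liver, a fold change of 0.31 (SE 0.13, adjusted p = 0.129) that did not pass, with PiZ replicate 2 just above wild-type.

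Gars (glycine) and Nars (asparagine) had the lowest fold changes among the 10. Gars read 9.68, 9.27 and 9.67 in PiZ liver, against 9.03, 9.09 and 9.02 in wild-type liver, and rose by 0.50 (SE 0.14, adjusted p = 0.0371). Nars read 11.63, 11.47 and 11.63 in PiZ liver, against 11.13, 11.10 and 11.03 in wild-type liver, and rose by 0.49 (SE 0.11, adjusted p = 0.017). Groups did not overlap in either gene. Both missed the threshold without PiZ replicate 3 or any 1 wild-type array, at 0.43 to 0.52 for Gars (adjusted p 0.0997 to 0.126) and 0.46 to 0.51 for Nars (adjusted p 0.0565 to 0.0838). Asns, which makes the asparagine that Nars charges, rose by 3.70 (SE 0.24, adjusted p = 0.000186).

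Yars, Cars and Tars, also outside the complex, did not pass. Yars (tyrosine) read 8.67, 8.68 and 8.79 in PiZ liver, against 8.56, 8.37 and 8.34 in wild-type liver, a fold change of 0.30 (SE 0.11, adjusted p = 0.0885) without overlap. Cars (cysteine) read 7.01, 7.12 and 7.04 in PiZ liver, against 7.37, 7.07 and 7.06 in wild-type liver, and the groups overlapped (-0.11, SE 0.12, adjusted p = 0.511). Tars (threonine) read 10.08, 8.66 and 9.01 in PiZ liver, against 10.05, 9.60 and 9.68 in wild-type liver. Its PiZ replicates fell on both sides of wild-type, and the fold change of -0.52 (SE 0.34, adjusted p = 0.278) had the widest error of the members.

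Of the 6 measured enzymes of the multisynthetase complex, Rars and Lars rose and the other 4 did not pass, while 8 of the 12 enzymes outside the complex rose. Over all genes 11.3% were called higher. The difference between the shares inside and outside the complex was not tested. Rars (arginine) read 9.55, 9.34 and 9.52 in PiZ liver, against 8.70, 8.66 and 8.70 in wild-type liver, and rose by 0.79 (SE 0.11, adjusted p = 0.00362). Lars, the leucine enzyme, which is also known as a leucine sensor for mTORC1, read 9.60, 9.71 and 9.70 in PiZ liver, against 9.03, 8.93 and 8.80 in wild-type liver, and rose by 0.75 (SE 0.11, adjusted p = 0.00444). Both genes showed all PiZ arrays well above wild-type. Eprs, a fused enzyme for glutamate and proline, read 10.71, 10.44 and 10.47 in PiZ liver, against 10.36, 10.32 and 10.25 in wild-type liver (0.23, SE 0.12, adjusted p = 0.18). Its groups did not overlap, though by a small margin. Another Eprs probe set rose by 0.78 (limma adjusted p over probe sets 0.0093), so its call depends on the probe set read.

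Kars, Iars and Qars, which charge lysine, isoleucine and glutamine, overlapped between the groups, with PiZ replicate 1 far from replicates 2 and 3 in each. Kars read 9.34, 8.64 and 8.81 in PiZ liver, against 8.79, 8.72 and 8.79 in wild-type liver (0.17, SE 0.18, adjusted p = 0.513). Iars read 9.71, 9.06 and 9.33 in PiZ liver, against 9.37, 9.10 and 9.26 in wild-type liver (0.12, SE 0.18, adjusted p = 0.628). In both, PiZ replicate 1 was the highest of all arrays. Qars went the other way, with 9.73, 10.44 and 10.21 in PiZ liver, against 10.20, 10.16 and 10.00 in wild-type liver (0.01, SE 0.18, adjusted p = 0.975). The 4 Qars probe sets differed in this. In order of brightness, the others read 10.00, 9.99 and 9.95, then 8.77, 7.83 and 7.92, then 4.04, 4.37 and 4.51 in PiZ liver. Among the scaffolds, Aimp1 read 9.17, 8.62 and 8.78 in PiZ liver, against 9.22, 9.08 and 9.22 in wild-type liver (-0.31, SE 0.16, adjusted p = 0.176). Without PiZ replicate 1, Aimp1 fell by 0.47 (adjusted p = 0.00785), and in PiZ replicate 1 alone it read 0.0039. Aimp2 read 8.12, 7.61 and 7.82 in PiZ liver, against 7.73, 7.76 and 8.04 in wild-type liver (0.01, SE 0.16, adjusted p = 0.979). PiZ arrays overlapped wild-type in both scaffolds.

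The enzymes fall into 2 unrelated structural classes, each with its own fold of the catalytic domain. Among measured cytosolic genes, 4 of 9 of class I (Lars, Rars, Vars and Wars) and 6 of 9 of class II (Aars, Farsa, Gars, Hars, Nars and Sars) rose, with medians of 0.30 and 0.50. By a list of enzymes known as ATF4 targets, written from general knowledge, 7 of 12 listed and measured enzymes rose (median 0.49), and 3 of the 6 others rose (median 0.43). Farsa, Hars and Rars were the risers outside that list. Over all genes 11.3% were called higher. The differences between the classes, and between enzymes on and off the list, were not tested.

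**Figure D2:**
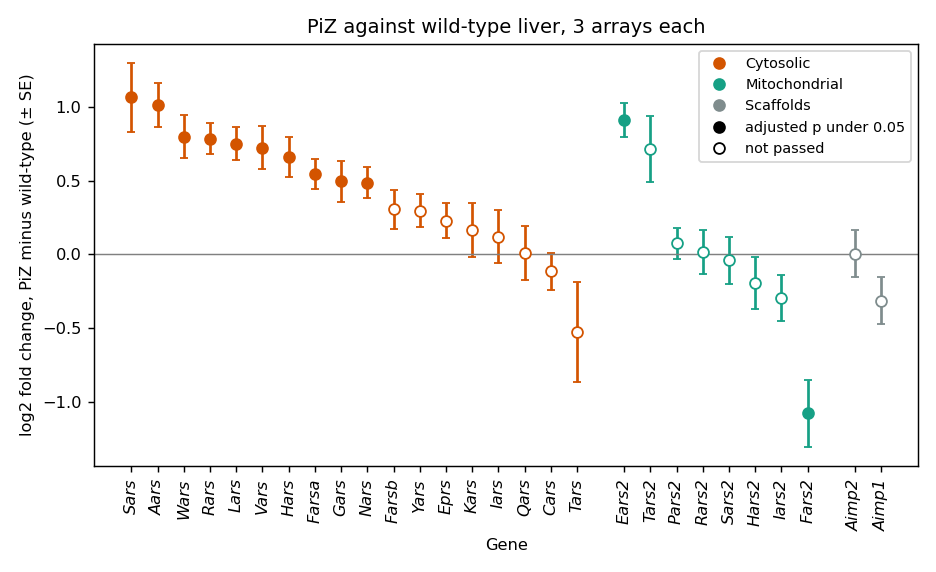
The vertical axis is the log2 fold change of PiZ over wild-type liver with its SE from limma, with genes ordered by size within each class and filled where the adjusted p was under 0.05. Cytosolic enzymes run from 1.06 (Sars) to -0.52 (Tars), and mitochondrial ones from 0.91 (Ears2) to -1.08 (Fars2).

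Among mitochondrial enzymes, Ears2 rose and Fars2 fell, and the other 6 did not pass. Ears2, which charges glutamate onto mitochondrial tRNA, read 7.37, 7.15 and 7.36 in PiZ liver, against 6.49, 6.34 and 6.32 in wild-type liver. It rose 1.88-fold, by 0.91 (SE 0.12, adjusted p = 0.00274), the smallest adjusted p of the members, with a wide gap between the groups. Fars2, the mitochondrial phenylalanine enzyme, read 7.91, 7.13 and 7.06 in PiZ liver, against 8.46, 8.30 and 8.57 in wild-type liver. It was 2.11-fold lower in PiZ (-1.08, SE 0.23, adjusted p = 0.0149), and PiZ replicate 1 lay between the other PiZ arrays and wild-type. The call was lost without PiZ replicate 2 or 3 or wild-type replicate 1 or 3 (-0.92 to -1.07, adjusted p 0.0514 to 0.0671). Tars2, the threonine enzyme, read 7.81, 8.65 and 8.62 in PiZ liver, against 7.56, 7.78 and 7.60 in wild-type liver. The groups did not overlap, but the fold change of 0.71 (SE 0.23, adjusted p = 0.0555) did not pass. Its PiZ replicate 1 was just above wild-type, and without that array Tars2 rose by 0.99 (adjusted p = 0.000325). In that fit 27.4% of all genes rose, and the PiZ arrays left differ from the others in RNA quality, as given below. The Tars2 fold change was 0.17 in PiZ replicate 1 alone. With RNA quality as a covariate it was 0.13 (limma adjusted p = 0.509).

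The other mitochondrial enzymes overlapped between the groups. Iars2 (isoleucine) read 8.05, 7.48 and 7.73 in PiZ liver, against 8.10, 7.96 and 8.08 in wild-type liver (-0.29, SE 0.16, adjusted p = 0.198). Hars2 (histidine) read 6.72, 7.33 and 7.30 in PiZ liver, against 7.26, 7.41 and 7.26 in wild-type liver (-0.19, SE 0.18, adjusted p = 0.433). PiZ replicates 2 and 3 were low in Iars2, which fell by 0.44 without replicate 1 (adjusted p = 0.0146), and replicate 1 was low in Hars2. In PiZ replicate 1 alone the Iars2 fold change was 0.0032. Fold changes of Pars2 (proline), Rars2 (arginine) and Sars2 (serine) were 0.08, 0.02 and -0.04, with adjusted p from 0.601 to 0.935. Sars2 was the dimmest member, at 5.88 ± 0.29 in PiZ and 5.92 ± 0.10 in wild-type liver (SD, n = 3 each), and no detection call was used to tell its level from background.

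The cytosolic and mitochondrial enzymes of the same amino acid were set against each other within each array for the 5 amino acids with 1 measured gene of each kind. A constant offset of an array cancels in this difference. Hars minus Hars2 was 3.65, 3.43 and 3.37 in PiZ liver, against 2.71, 2.64 and 2.55 in wild-type liver. Sars minus Sars2 was 3.78, 3.96 and 4.28 in PiZ liver, against 3.06, 2.94 and 2.70 in wild-type liver. Rars minus Rars2 was 1.40, 1.73 and 1.54 in PiZ liver, against 0.74, 0.82 and 0.82 in wild-type liver. In these 3 pairs every PiZ array was higher, by 0.85 (SE 0.10), 1.10 (SE 0.18) and 0.77 (SE 0.10) on average. In the serine pair Sars itself changed by 1.06 and Sars2 by -0.04. Sars2, the dimmest member, cannot be told from background here. The isoleucine pair moved less but as uniformly, with 1.66, 1.58 and 1.60 in PiZ liver, against 1.27, 1.14 and 1.19 in wild-type liver, a difference of 0.41 (SE 0.05). Of that difference, Iars itself gave 0.12 and the lower Iars2 (-0.29) the larger share, and the levels of each gene alone overlapped between the groups. The pair was read with the brighter Iars probe set, and the dimmer one had a fold change of -0.35. For threonine the difference was 2.27, 0.01 and 0.39 in PiZ liver, against 2.49, 1.82 and 2.08 in wild-type liver, and the groups overlapped. An exact permutation test (two-sided) gave p = 0.1 for the 4 separated pairs, the smallest that 3 against 3 arrays allow, and p = 0.3 for threonine. Hars and Hars2 are neighbours among protein-coding genes in the RefSeq annotation of GRCm38.p6.

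**Figure D3:**
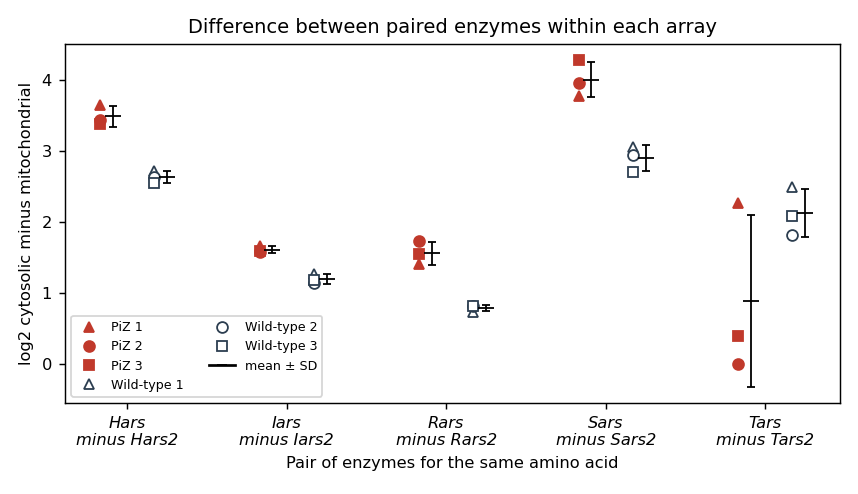
The vertical axis is the log2 intensity of the cytosolic enzyme minus that of the mitochondrial enzyme on the same array, with PiZ arrays filled, wild-type arrays open, and the mean ± SD as black bars beside each group. PiZ arrays lie above wild-type arrays for histidine, isoleucine, arginine and serine, and spread from 0.01 to 2.27 for threonine.

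PiZ replicates 2 and 3 differed from the other arrays in RNA quality. For Gapdh and beta-actin, the signal of 3′ probe sets less that of 5′ ones, which is larger in shortened RNA, averaged 2.50, 4.64 and 4.33 on PiZ arrays, against 2.20 to 2.70 on wild-type arrays (log2). Pearson's correlation across genes was 0.993 between PiZ replicates 2 and 3, 0.98 to 0.984 between them and PiZ replicate 1, and 0.996 to 0.997 between wild-type arrays. The cytosolic median over wild-type was 0.51 in PiZ replicate 1 and 0.44 in the mean of replicates 2 and 3, and the mitochondrial one was 0.01 and 0.06. In a limma fit of PiZ replicate 1 alone against wild-type, where it is assumed to vary like wild-type, 10 cytosolic enzymes rose (8.83% of all genes). Of these 8 were among the 10 above, Hars and Wars were lost, and Farsb (0.48) and Kars (0.58) were gained. Ears2 (0.99) rose and Fars2 (-0.54) fell there as well, and Hars2 fell by 0.58 (9.8% of all genes fell). With that 3′ bias in the fit as a covariate, 8 cytosolic enzymes rose (7.0% of all genes), 6 of them among the 10, without Hars, Sars, Vars and Wars and with Iars (0.53) and Kars (0.60). Ears2 rose and Fars2 and Hars2 fell in that fit (7.64% of all genes fell). Without PiZ replicate 1, the 10 enzymes all rose and so did Yars (27.4% of all genes rose), while Tars fell by 0.94 (22.4% fell). The Tars fold change was 0.39 with the covariate and 0.31 in PiZ replicate 1 alone. The part of RNA quality in these results was not tested further.

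The 15 members read by more than 1 probe set gave the same direction in all of them for 11 genes and both directions for 4 (Cars, Farsb, Iars and Qars). Over all 20380 single-gene probe sets, 19.9% passed. Wars passed in 4 of 4 probe sets, from 0.47 to 0.99, and Hars (0.51 and 0.66) and Sars (0.76 and 1.06) in both of theirs. These genes rose whichever probe set was read. Aars passed in the brighter of 2 (1.01), and its other probe set read 0.48 (adjusted p over probe sets 0.0618). Nars likewise passed in the brighter of 2, with 0.10 in the dimmer. The reverse held for Eprs, where the brightest of 3 probe sets did not pass and the next in brightness rose by 0.78. That probe set read 10.13, 10.47 and 10.50 in PiZ liver, against 9.63, 9.61 and 9.51 in wild-type liver, a gap with no overlap. Hars2 fell by 0.71 in its dimmer probe set, and the second probe set of Fars2 read -0.31 without passing. Ears2 passed in 2 of 3, at 0.91 and 0.52. The probe sets chosen for Aars, Iars and Sars carry the suffix _s_at and those of Farsb, Qars, Tars2 and Wars _x_at, by which the maker marks probes that can also match other transcripts.

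**Figure D4:**
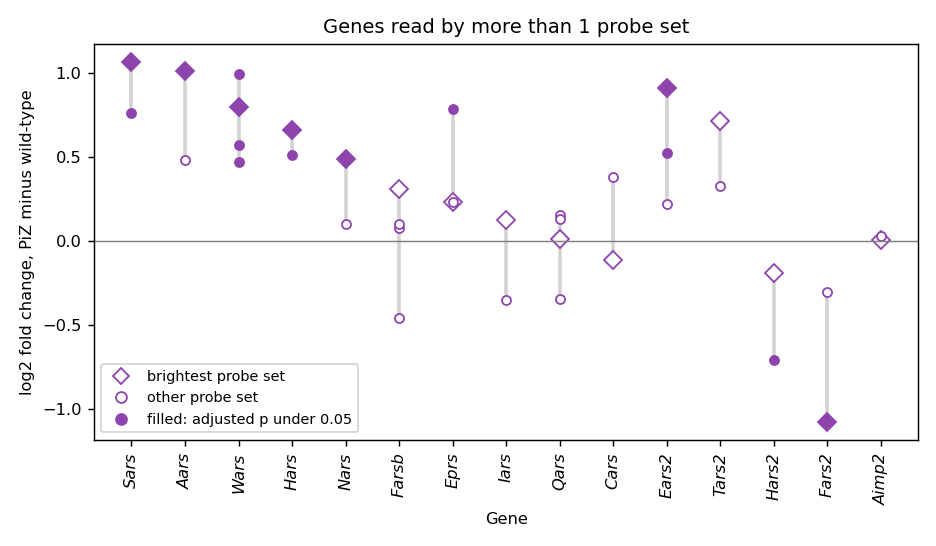
Each symbol is the log2 fold change of PiZ over wild-type liver in 1 probe set, for the 15 genes with several, with diamonds for the brightest and filled symbols for an adjusted p under 0.05 over all probe sets. Wars, Hars and Sars are filled throughout, and the lines of Farsb, Iars, Qars and Cars cross 0.

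Genes around the enzymes were read from lists written from general knowledge. Of 8 measured genes of eIF2alpha kinases, phosphatase subunits and ATF4 signalling, 3 rose and 1 fell (11.3% and 12.3% of all genes). Atf4 read 10.99, 11.17 and 10.96 in PiZ liver, against 10.26, 10.06 and 10.17 in wild-type liver, and rose by 0.88 (SE 0.11, adjusted p = 0.0029), a size within the range of the rising enzymes. Ddit3 (Chop), a partner of ATF4, rose by 3.70, and Ppp1r15a (Gadd34), which directs the phosphatase to eIF2alpha, by 1.28, while its constitutive counterpart Ppp1r15b fell by 0.51. The kinases Eif2ak3 (Perk, 0.46) and Eif2ak4 (Gcn2, which senses uncharged tRNA, 0.48) did not pass, with adjusted p of 0.158 and 0.0843.

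Other ATF4 targets rose in 18 of 26 measured genes and fell in 0 (11.3% and 12.3% of all genes), with a median of 1.12. Atf3, a transcription factor, rose by 5.28, the stress protein gene Nupr1 by 4.90, the mTORC1 inhibitor Ddit4 by 4.34 and the pseudokinase Trib3 by 4.13. These values exceed the 1.06 of Sars, the highest of the enzymes. Among 14 measured genes of tRNA export, processing and mitochondrial charging, 1 rose and 3 fell, against 11.3% and 12.3% of all genes. That list also holds the rRNA methyltransferase Nop2. Elac2, which trims tRNA 3′ ends, rose by 0.74. Mtfmt, which formylates the mitochondrial initiator methionyl-tRNA, fell by 1.31 (SE 0.12, adjusted p = 0.000858). Pstk, a kinase on the path to selenocysteinyl-tRNA, fell by 1.16, and Trnt1, which adds the CCA end, by 0.82. The tRNA exporter Xpot (-0.12) did not pass, nor did the third scaffold Eef1e1, which read 7.91, 6.39 and 6.92 in PiZ liver, against 8.04, 7.94 and 8.06 in wild-type liver (-0.94, SE 0.34, adjusted p = 0.0778).

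Of 4 measured cytosolic elongation factors 0 passed (the smallest p were of Eef1d at 0.31 and Eef1a1 at -0.20, limma adjusted p 0.0705 and 0.248, with 1 of 4 at an unadjusted p under 0.05), and of 4 mitochondrial translation factors only Mtif2 passed, falling by 0.58. Interferon-induced genes, listed because Wars is known as one of them, rose in 1 of 12 (the antiviral Rsad2, 0.58) and fell in 3 (the immunoproteasome subunits Psmb8, -1.07, and Psmb9, -0.69, and Ifit1, -0.998). Beside each of these lists, the translation factors included, the shares over all genes were 11.3% higher and 12.3% lower.

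**Figure D5:**
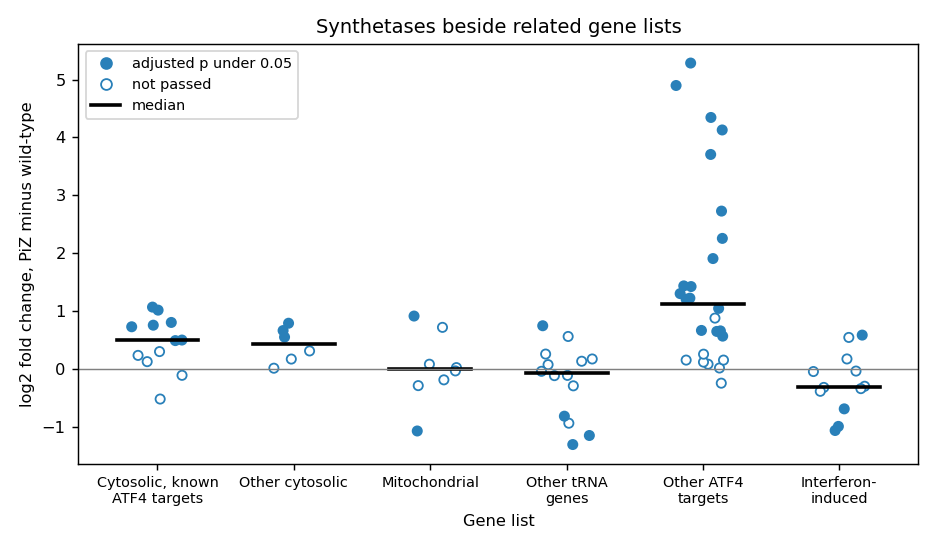
Each point is the log2 fold change of 1 gene, PiZ over wild-type liver, filled where the adjusted p was under 0.05, with the list's median as a bar. Medians are 0.49 and 0.43 for the cytosolic enzymes on and off the list of known ATF4 targets, -0.01 for mitochondrial enzymes, -0.08 for other tRNA genes, 1.12 for other ATF4 targets and -0.31 for interferon-induced genes.

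In whole liver, more RNA per cell and more cells of a type cannot be told apart. The hepatocyte marker Alb read 14.63 to 14.89 in PiZ and 14.92 to 14.96 in wild-type liver. Of 6 such markers measured only Apob passed, falling by 0.81 (3 lower at an unadjusted p under 0.05 by limma), against 12.3% of all genes. All 6 fold changes were negative. In 5 of them every PiZ array lay below every wild-type array, a pattern seen for 19.9% of all genes. The log2 of the summed hepatocyte markers was 16.77 to 16.97 in PiZ and 17.08 to 17.10 in wild-type liver. Of 8 Kupffer cell and macrophage markers 3 rose (Marco by 0.97, Cd5l by 0.67 and Clec4f, 0.64), against 11.3% of all genes. The other 5 did not pass. Fold changes were positive in 5 of the 8 and negative in 3, with a median of 0.18. The summed level of the 8 was 13.07 to 13.35 in PiZ and 12.83 to 12.88 in wild-type liver. Of 4 neutrophil markers S100a8 and S100a9 rose, by 2.76 and 2.27, against 11.3% of all genes. Mpo and Elane, genes of neutrophil granule proteins, had fold changes of 0.04 and 0.07 and did not pass. Both were dim, with means of 3.94 and 5.15 in PiZ and 3.89 and 5.08 in wild-type liver. No detection call was used to tell them from background. The summed level of the 4 was 8.90 to 9.40 in PiZ and 6.83 to 7.38 in wild-type liver. Lymphocyte, stellate cell, cholangiocyte and endothelial markers passed in 0 of 18 genes by limma (4 at an unadjusted p under 0.05). The part of these cells in the rise of the enzymes was not tested.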

How the data were processed

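The authors deposited a log2 intensity for every probe set of each one-colour Affymetrix array. The submitters' processing notes name affy and RMA. RMA corrects background, makes array distributions alike and summarises probes, so a change shared by most genes is removed. That the scale is log2 was read from the range of the values (2.3 to 14.98). No tool version or filter is given in the sources used here. Of 22690 probe sets, 64 were controls, 20380 named 1 gene, 691 several and 1555 none by the platform annotation. Entrez identifiers matched the mouse reference table for 20351 of the 20380, and 0 symbols needed an update.

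PiZ and wild-type arrays were set against each other by lmFit and eBayes of limma 3.58.1 (R 4.3.3, two-sided, no covariate), with p-values adjusted by Benjamini-Hochberg over 12393 genes at 0.05, and checked on simulated data. Replicates are biological by their labels, and the error terms describe variation from mouse to mouse. Within-array differences were tested with an exact permutation test. Promoter windows are RefSeq's for GRCm38.p6, while no build is named for the array's annotation. All measured members were named, and of each other list up to 4 changed genes of greatest size (where none changed, the 2 of lowest p), plus Atf4 and Ddit3; of marker lists, counts and the 2 largest changes. Asns, Xpot, Eef1e1, Eif2ak3, Eif2ak4, Alb, Clec4f, Mpo and Elane were named beyond this rule, after their values were seen. Members and lists were chosen with earlier results of these data known. Tables and figures used Python 3.11.15, pandas 2.3.3 and matplotlib 3.10.9.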

Additional observations from a re-analysis of the deposited data

How the results depend on the processing

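The fit was repeated under 19 alternatives: other probe sets, dim genes left out, scalings, variance models, the replicate number as a block, RNA quality, a threshold of 0.01, and each array left out. Aars, Lars, Rars and Ears2 passed in all 19, Farsa and Wars in 16, Vars in 15, Gars and Fars2 in 14, Hars in 13, and Nars and Sars in 12, always in the same direction. The median change of all genes shifted from 0.08 to -0.05 without dim genes and to 0.28 with centring on 7 reference genes, and in the last the cytosolic median was 0.69, the mitochondrial median 0.19 and 1907 genes changed, against 2921. These 7 were not constant: without centring, 2 rose (Ywhaz and Pgk1) and 2 fell (Tbp and Gusb). Changed genes numbered 6520 with array weights, 1814 with the 3′ to 5′ difference as covariate and 914 at a threshold of 0.01, which left 3 cytosolic enzymes higher and 0 mitochondrial ones lower. Mitochondrial enzymes were higher in 2 genes after cyclic loess, with array weights and with the replicate block. They were lower in 2 with the median of all probe sets, the probe set with the largest spread, array weights, the covariate and PiZ replicate 1 alone. Array weights called 1 cytosolic enzyme (Tars) and the scaffold Aimp1 (-0.40, adjusted p = 0.012) lower. The mitochondrial median of -0.01 was otherwise 0.0188 without dim genes, -0.0635 after cyclic loess, 0.0246 after a further quantile normalization, 0.0499 with array weights, 0.0236 with the covariate and 0.0084 in PiZ replicate 1 alone. Leaving out 1 array gave 1068 (wild-type replicate 3) to 6175 (PiZ replicate 1) changed genes, 4 to 11 cytosolic enzymes higher, 0 to 1 lower, 1 to 2 mitochondrial enzymes higher, 0 to 2 lower, and medians of 0.44 to 0.55 and -0.0597 to 0.0562.

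Members that did not pass changed sign as follows. With the median of all probe sets Cars read 0.13, Farsb -0.19, Iars -0.12 and Qars -0.14, and with the probe set of largest spread 0.38, -0.46, -0.35 and -0.35. Centring on reference genes gave Cars 0.0849, Hars2 0.0063 and Sars2 0.16, and array weights gave Sars2 0.0798 and Aimp2 -0.049. The covariate gave Qars -0.41, Tars 0.39, Iars2 0.045 and Aimp1 0.0396, and PiZ replicate 1 alone gave Qars -0.39, Tars 0.31, Iars2 0.0032 and Aimp1 0.0039. Leaving out 1 array moved Iars between -0.0516 and 0.28, Kars between -0.0383 and 0.31, Qars between -0.15 and 0.21, Hars2 between -0.30 and 0.0029, Rars2 between -0.10 and 0.17, Sars2 between -0.14 and 0.13 and Aimp2 between -0.13 and 0.12. The cause was not tested.

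The labels do not say whether the replicate number pairs the mice. Deviations from the group means correlated at 0.264, 0.285 and -0.034 between arrays of the same number. With 3 arrays in a group these values cannot settle it. With the replicate number as a block 3225 genes changed, 10 cytosolic enzymes were higher and 0 lower. No detection calls were used, so dim members such as Sars2 cannot be told from background.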
